A study of Mus musculus with 11 samples.

Results

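Arginase and polyamine metabolism was followed through 10 genes, Arg1, Arg2, Odc1, Amd1, Srm, Sms, Sat1, Smox, Azin1 and Oaz1, in skin and skin tumors of mice painted with DMBA, a mutagenic polycyclic hydrocarbon. The 10 genes were taken by symbol from a table of 24974 genes, and all 10 were found and passed the filter on low values. Expression was measured by sequencing RNA depleted of ribosomal RNA and is given in RPKM, reads per unit of gene length and of library size, so that levels can be compared between genes. The groups were Dlx3 KO tumors (n = 5), Dlx3 KO skin (n = 3) and WT skin (n = 3). Dlx3 KO stands for a conditional knockout of Dlx3, which encodes a homeobox factor of epidermis and hair follicle, and WT for wild type. All groups received 3 doses of 100 µg DMBA in 200 µl on the back at intervals of 1 week and were sampled at week 31, so there is no untreated skin among them. Skins came from 3 mice of each genotype, and those of Dlx3 KO mice were whole skin outside lesions. The promoter that drives the Cre, the strain and the age at treatment are not given in the sources used here. No label links a tumor to a mouse, so some tumors and skins may come from 1 animal. A p-value here weighs a difference between groups against the spread between libraries within groups. That spread may differ from the spread between mice.

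Arginase splits arginine into urea and ornithine, and ornithine decarboxylase, Odc1, turns ornithine into putrescine, the first polyamine. Spermidine synthase and spermine synthase then add aminopropyl groups that come from decarboxylated S-adenosylmethionine, while acetylation by Sat1 and oxidation by Smox lead back or out. Polyamines bind nucleic acids and are needed for cell growth, and Odc1 induction is a classic response of mouse epidermis to tumor promoters.

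Libraries had 29265111 to 75707445 alignments, and no pair within a group held identical values. Dlx3 itself was at 1.34 to 7.61 RPKM in the tumors, 4.08 to 8.88 RPKM in Dlx3 KO skin and 49.9, 7.35 and 89.9 RPKM in WT skin 1, 2 and 3, so the library labelled WT skin 2 was not above the Dlx3 KO skins. WT skin 1 to 3, Dlx3 KO skin 2 and 3 and tumor 5 were sequenced in a first run and the other 5 libraries in a second. Xist, the RNA of the silenced X chromosome in females, was under 1 RPKM in WT skin 1 and 3 and tumors 3 and 4 and at 10.1 to 22.0 RPKM in the other 7 libraries. The summed level of 16 skeletal muscle markers was 42.4 to 818 RPKM in tumors, 7177 to 15267 RPKM in Dlx3 KO skin and 15252 to 24038 RPKM in WT skin, and that of 13 hair shaft and inner root sheath markers was 22.5 to 222, 85.8 to 893 and 831 to 10985 RPKM in the same groups. Keratinocyte markers Krt5, Krt14, Krt1 and Krt10 were detected in every library, as the label skin requires. In such bulk samples, fewer cells of a type and less RNA per cell cannot be told apart.

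What separates a tumor from skin of the same genotype was asked by comparing Dlx3 KO tumors with Dlx3 KO skin. Arg1 rose in tumors and no other member passed the test (limma on log2(RPKM + 0.5), Benjamini-Hochberg adjusted p under 0.05 over 14233 genes). In this comparison 7.55% of all tested genes were called, 0.998% higher and 6.56% lower. The median log2 fold change of the 10 members was 0.07, against -0.23 over all tested genes. Of the members, 3 had groups that did not overlap (Arg1 and Amd1 higher, Sms lower), against 19.4% of all tested genes (4.65% higher and 14.8% lower). An unadjusted p under 0.05 in limma was found for 4 of the 10 members and for 3656 of all 14233 tested genes. On the scale of log2(RPKM + 0.5), Odc1, Amd1 and Azin1 were higher and Sms and Sat1 lower in every tumor than the mean of the Dlx3 KO skins, at adjusted p above the threshold. Some of these differences were very small: Sat1 -0.011 in tumor 1 and -0.026 in tumor 5, Azin1 0.011 in tumor 2 and Amd1 0.054 in tumor 1. Tumor 1 was the tumor nearest to the skins in Odc1, Amd1 and Sms, and its Odc1 level was at the mean of the Dlx3 KO skins (difference 0.03).

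**Figure D1:**
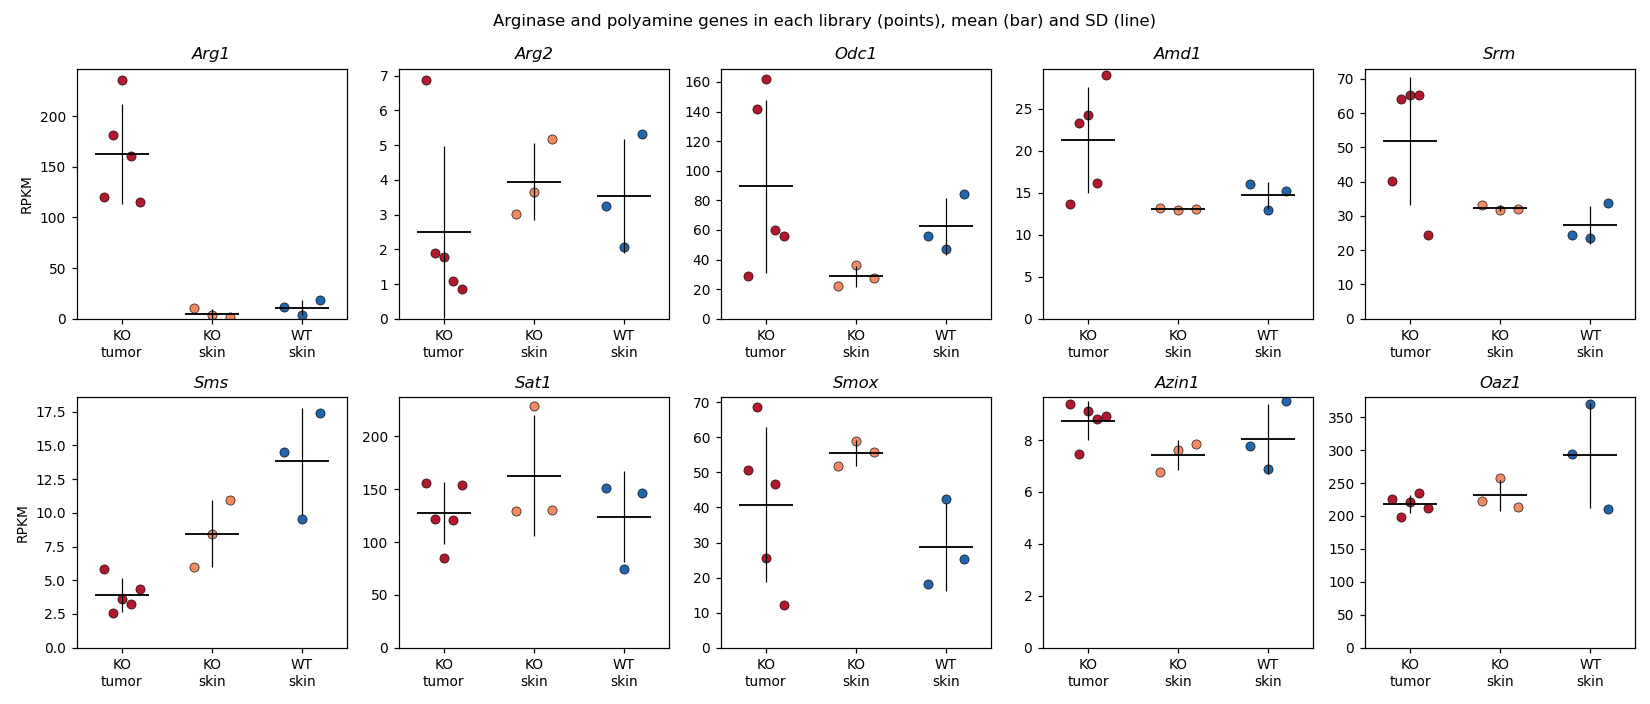
RPKM (y axis, linear, separate scale per gene) of the 10 genes in Dlx3 KO tumors (n = 5), Dlx3 KO skin (n = 3) and WT skin (n = 3). Points are libraries, horizontal bars group means and vertical lines the SD. Arg1 lay at 116 to 235 RPKM in tumors and at most at 18.2 RPKM in the skins, and Sms was lowest in the tumors.

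Arg1, the cytosolic arginase (chromosome 10, 24915221 to 24927484, minus strand, mm10), was at 120, 182, 235, 160 and 116 RPKM in tumors 1 to 5. In Dlx3 KO skin it was at 10.8, 3.33 and 1.37 RPKM, and in WT skin at 11.3, 3.61 and 18.2 RPKM. Every tumor was thus above every skin. The highest tumor was 2.04-fold above the lowest, while the highest library was 7.86-fold above the lowest in Dlx3 KO skin and 5.05-fold in WT skin. Tumors averaged 163 ± 49.2 RPKM and Dlx3 KO skins 5.15 ± 4.95 RPKM (SD, n = 5 and 3; log2 fold change 5.19 ± 0.58, SE, limma adjusted p = 0.000235). Within the first sequencing run, which holds 1 tumor and 2 Dlx3 KO skins, the log2 fold change was 5.44, and within the second, which holds 4 tumors and 1 Dlx3 KO skin, it was 3.92. With 1 library in an arm, these are given as values without a test. The authors' deposited table gives a ratio of 41.4 with p = 7.06e-05 for Arg1 in tumor against Dlx3 KO skin.

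Arg1 is also a classic gene of alternatively activated macrophages in the mouse, so markers of other cells were set beside it. The summed level of 7 measured genes of such macrophages (of 8 listed) was 4.50 to 96.0 RPKM in tumors, 155 to 458 RPKM in Dlx3 KO skin and 204 to 1098 RPKM in WT skin. Of the 6 tested genes of that list, 5 fell and 0 rose in tumors against Dlx3 KO skin. Among them were Retnla, which encodes a secreted protein (log2 fold change -5.70, limma adjusted p = 0.0205), and the mannose receptor Mrc1. Retnla alone was at 0.522 to 44.2 RPKM in tumors, 99.6 to 366 RPKM in Dlx3 KO skin and 138 to 1006 RPKM in WT skin. Retnla thus made most of the sum of that list in each skin. Of the other genes of the list, Clec10a, Ccl24 and Ear2 did not overlap between tumors and skins, while Mrc1, Mgl2 and Chil3 did. The broader list of 15 macrophage and dendritic cell markers summed to 166 to 726 RPKM in tumors, 577 to 1044 RPKM in Dlx3 KO skin and 547 to 868 RPKM in WT skin, with 7 members fallen and 0 risen against Dlx3 KO skin. The sums of the first list did not overlap between tumors and skins, while tumor 1, with 726 RPKM of the broader list, lay above Dlx3 KO skin 1 and WT skin 1 and 3. The part of macrophages in the Arg1 level was not tested. The 12 neutrophil markers summed to 17.1 to 249 RPKM in tumors, 16.7 to 21.8 RPKM in Dlx3 KO skin and 9.82 to 23.0 RPKM in WT skin, with Ly6g at 0 in all WT skins and at most 0.0766 RPKM in a tumor, and with the top sum in tumor 5, where the granule protein gene Ltf alone was at 218 RPKM, against at most 6.35 RPKM in any other library. Elsewhere that sum came largely from Cxcr2, at 4.38 to 17.4 RPKM over all libraries, and Mmp9, at 1.56 to 20.1 RPKM. Ly6g, Elane, Ngp, Camp, Mmp8 and Cd177 stayed under 0.5 RPKM in every library. None of the 5 neutrophil genes tested passed. The 10 keratinocyte markers summed to 19678 to 58886 RPKM in tumors, 25860 to 29493 RPKM in Dlx3 KO skin and 5372 to 32941 RPKM in WT skin. Krt6a, Krt14 and Itga6 of that list rose in tumors against Dlx3 KO skin and 0 fell. The part of keratinocyte content in the Arg1 level was not tested.

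**Figure D2:**
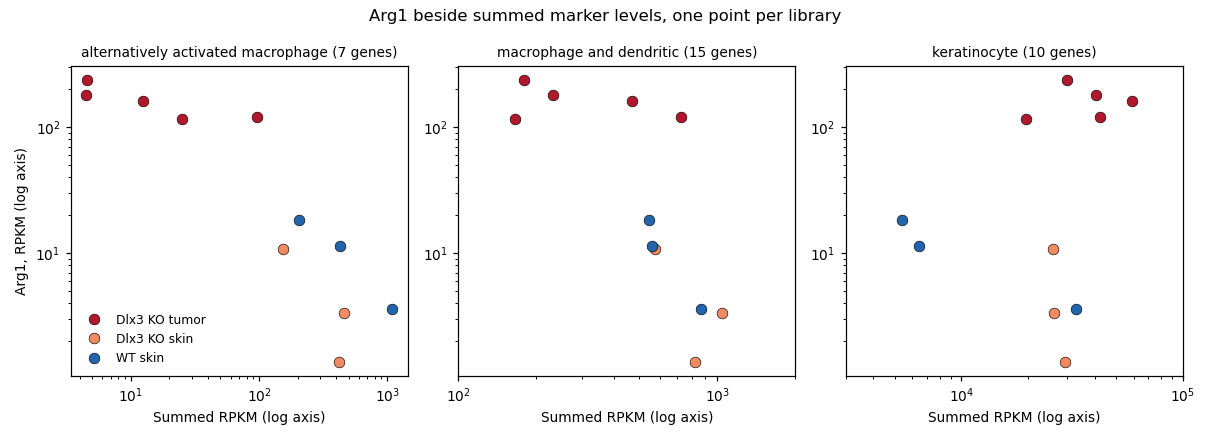
Arg1 in RPKM (y axis, log) against the summed RPKM of 3 marker lists (x axes, log), 1 point per library. The 5 tumors lay at the top, with 4.50 to 96.0 RPKM of alternatively activated macrophage markers, below the 155 RPKM of the lowest skin. Retnla made most of that sum in each skin.

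Arg2, the mitochondrial arginase (chromosome 12, 79130777 to 79156301, plus strand), was at 6.87, 1.89, 1.77, 1.09 and 0.865 RPKM in tumors 1 to 5, against 3.01, 3.66 and 5.17 RPKM in Dlx3 KO skin and 3.24, 2.06 and 5.32 RPKM in WT skin. Tumor 1 was above all skins and tumors 2 to 5 below all of them, so the tumors differed 7.93-fold among themselves. The log2 fold change of tumors against Dlx3 KO skin was -0.84 ± 0.49 (SE, limma adjusted p = 0.303), and with single libraries left out it was -1.24 to -0.63 (adjusted p = 0.0200 to 0.616), where 1 of 11 fits passed, that without tumor 1. Arg1 made up 94.6% to 99.3% of the summed RPKM of both arginases in tumors, 20.9% to 78.1% in Dlx3 KO skin and 63.6% to 77.7% in WT skin. Exons of Vti1b, on the other strand, overlap those of Arg2, and 17.1% of the 50-base windows of the Arg2 transcript are found in Vti1b transcripts, so part of the Arg2 level is uncertain.

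Ornithine decarboxylase and the aminopropyl donor come next in the pathway. Odc1 (chromosome 12, 17544794 to 17551505, plus strand) was at 28.7, 142, 162, 59.9 and 55.6 RPKM in tumors 1 to 5, against 22.2, 36.3 and 27.8 RPKM in Dlx3 KO skin and 55.9, 47.1 and 84.0 RPKM in WT skin. Tumors 2 and 3 stood above every skin, whereas tumor 1 overlapped the Dlx3 KO skins. Tumors averaged 89.6 ± 58.5 RPKM and Dlx3 KO skins 28.7 ± 7.10 RPKM (SD, n = 5 and 3), and the log2 fold change was 1.38 ± 0.49 (SE, limma adjusted p = 0.112). With single libraries left out the log2 fold change was 1.10 to 1.71 (limma adjusted p = 0.0123 to 0.287), and 1 of these 11 fits passed, that without tumor 1. Processed copies of Odc1 share sequence with it, and 42.2% of the 50-base windows of its transcript occur in other annotated genes, so its level is uncertain to that extent. The summed level of 9 proliferation markers was 174 to 261 RPKM in tumors, 110 to 156 RPKM in Dlx3 KO skin and 127 to 230 RPKM in WT skin, with 2 of 9 risen in tumors against Dlx3 KO skin, and its part in the Odc1 level was not tested.

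Amd1, the decarboxylase that makes the aminopropyl donor (chromosome 10, 40287458 to 40302186, minus strand), was at 13.6, 23.3, 24.2, 16.2 and 28.9 RPKM in tumors 1 to 5, against 13.2, 13.0 and 13.1 RPKM in Dlx3 KO skin and 16.0, 12.9 and 15.2 RPKM in WT skin. All tumors were above all Dlx3 KO skins, tumor 1 by the smallest margin. The log2 fold change was 0.63 ± 0.24 (SE, limma adjusted p = 0.130), and 0.51 to 0.77 with single libraries left out (adjusted p = 0.0275 to 0.318), where 1 of 11 fits passed, that without tumor 1. Amd2 is a near copy of Amd1: 86.1% of the 50-base windows of Amd1 also occur in Amd2, so reads of these genes cannot be told apart over most of their length. Summed, Amd1 and Amd2 were at 27.3 to 60.2 RPKM in tumors, 27.1 to 27.6 RPKM in Dlx3 KO skin and 27.8 to 32.1 RPKM in WT skin.

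The synthases that build the higher polyamines differed from the skins in opposite directions in most tumors. Spermidine synthase, Srm (chromosome 4, 148591503 to 148594993, plus strand), was at 40.3, 64.0, 65.4, 65.2 and 24.3 RPKM in tumors 1 to 5, against 33.3, 31.7 and 31.9 RPKM in Dlx3 KO skin and 24.6, 23.6 and 33.8 RPKM in WT skin. Tumors 1 to 4 were above every skin, and tumor 5 lay within the WT range and below the Dlx3 KO skins. The log2 fold change against Dlx3 KO skin was 0.58 ± 0.31 (SE, limma adjusted p = 0.269) and turned to -0.38 in the first run alone, where tumor 5 is the only tumor.

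Spermine synthase, Sms (chromosome X, 157443855 to 157492287, minus strand), was at 5.85, 2.56, 3.59, 3.26 and 4.36 RPKM in tumors 1 to 5, against 6.01, 8.43 and 10.9 RPKM in Dlx3 KO skin and 14.5, 9.55 and 17.4 RPKM in WT skin. All tumors were below all skins, although tumor 1 and Dlx3 KO skin 1 differed by little. Against Dlx3 KO skin the log2 fold change was -1.02 ± 0.29 (SE, limma adjusted p = 0.0518), just outside the threshold. With single libraries left out it was -1.24 to -0.83 (adjusted p = 0.0124 to 0.235), and 2 of 11 fits passed, those without tumor 1 and without WT skin 2. A processed copy, Sms-ps, shares 28.7% of the 50-base windows of the Sms transcript. The ratio of Srm to Sms, chosen after values were seen, was 5.58 to 25.0 in tumors, 2.92 to 5.54 in Dlx3 KO skin and 1.70 to 2.47 in WT skin.

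The promoters of Odc1 and Sms are shown because Odc1 reached its highest levels in tumors 2 and 3, above every skin, and Sms was below every skin in all tumors. Both are RefSeq windows of 300 bases on GRCm38.p6 around an annotated start, 5′ to 3′ on the strand of the gene: Odc1 is chr12:17544623-17544922 on the plus strand and Sms chrX:157492238-157492537 on the minus strand. Capitals mark matches, on either strand, to the E-box CACGTG, the TATA box TATAAA, the cAMP response element TGACGTCA, the AP-1 element TGANTCA and the GC box GGGCGG.
Odc1: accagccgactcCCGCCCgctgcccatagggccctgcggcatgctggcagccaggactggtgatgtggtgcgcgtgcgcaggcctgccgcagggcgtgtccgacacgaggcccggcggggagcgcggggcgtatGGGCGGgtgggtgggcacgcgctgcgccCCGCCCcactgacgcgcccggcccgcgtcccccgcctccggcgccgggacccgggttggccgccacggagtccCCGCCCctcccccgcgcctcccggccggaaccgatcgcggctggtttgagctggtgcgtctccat
Sms: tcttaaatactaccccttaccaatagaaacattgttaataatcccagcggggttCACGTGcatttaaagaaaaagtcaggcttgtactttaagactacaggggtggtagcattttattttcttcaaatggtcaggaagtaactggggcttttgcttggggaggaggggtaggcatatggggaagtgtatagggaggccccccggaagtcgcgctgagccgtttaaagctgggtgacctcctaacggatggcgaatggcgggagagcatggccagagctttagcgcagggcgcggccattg
The Odc1 window holds 4 GC boxes and the Sms window 1 E-box, with no match to the other motifs. Of 32851 such windows of the same length, 35.7% hold a GC box, 7.15% an E-box, 13.6% a TATA box, 1.79% a cAMP response element and 7.81% an AP-1 element. A second start of Sms, at chrX:157491319-157491618, has 4 GC boxes and no E-box. Windows were found for 6 of the 10 members, and Arg1, Arg2, Srm and Azin1 had none in the table used.

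Genes that break polyamines down or regulate the decarboxylase stayed without a call in tumors against Dlx3 KO skin. Sat1, the acetyltransferase that starts polyamine breakdown and export (chromosome X, 155213132 to 155216449, minus strand), was at 156, 122, 84.8, 121 and 154 RPKM in tumors 1 to 5, against 130, 229 and 130 RPKM in Dlx3 KO skin and 151, 74.7 and 146 RPKM in WT skin. The 3 groups overlapped, and the log2 fold change of tumors against Dlx3 KO skin was -0.33 ± 0.31 (SE, limma adjusted p = 0.517). Smox, which oxidizes spermine back to spermidine (chromosome 2, 131491496 to 131525922, plus strand), was at 50.8, 68.6, 25.6, 46.7 and 12.2 RPKM in tumors 1 to 5, against 51.7, 59.0 and 55.9 RPKM in Dlx3 KO skin and 18.0, 42.5 and 25.3 RPKM in WT skin. The tumors spread on both sides of the narrow Dlx3 KO skin range, 4 of them below it and tumor 2 above it. The log2 fold change was -0.66 ± 0.48 (SE, limma adjusted p = 0.408) over all tumors. In the first run alone, with tumor 5 against 2 Dlx3 KO skins, it was -2.19, and in the second, with tumors 1 to 4 against 1 Dlx3 KO skin, -0.19, both given without a test. No 50-base window of Smox or Arg1 occurs in another annotated gene.

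Oaz1 encodes antizyme, which binds Odc1 and sends it to the proteasome, and its protein is made by a frameshift that polyamines stimulate. Its RNA (chromosome 10, 80826656 to 80829290, plus strand) was the most abundant of the 10 members in each group, at 226, 199, 221, 235 and 212 RPKM in tumors 1 to 5, against 223, 258 and 213 RPKM in Dlx3 KO skin and 294, 370 and 211 RPKM in WT skin. Tumors and Dlx3 KO skin lay within one narrow range. The log2 fold change, -0.08 ± 0.20 (SE, limma adjusted p = 0.827), turned to 0.20 with median-ratio scaling and 0.04 with quantile scaling, and 52.2% of its 50-base windows occur in the copy Oaz1-ps. Azin1, the antizyme inhibitor, which resembles Odc1 and frees it from antizyme (chromosome 15, 38487427 to 38519266, minus strand), was at 9.39, 7.46, 9.14, 8.79 and 8.93 RPKM in tumors 1 to 5, against 6.75, 7.63 and 7.87 RPKM in Dlx3 KO skin and 7.76, 6.87 and 9.50 RPKM in WT skin. Tumors except tumor 2 were above the Dlx3 KO skins but within or below the top of the WT range (log2 fold change 0.22 ± 0.17, SE, limma adjusted p = 0.428). The level of Odc1 was 12.7% to 73.3% of that of Oaz1 in tumors, 9.93% to 14.0% in Dlx3 KO skin and 12.7% to 39.8% in WT skin.

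**Figure D3:**
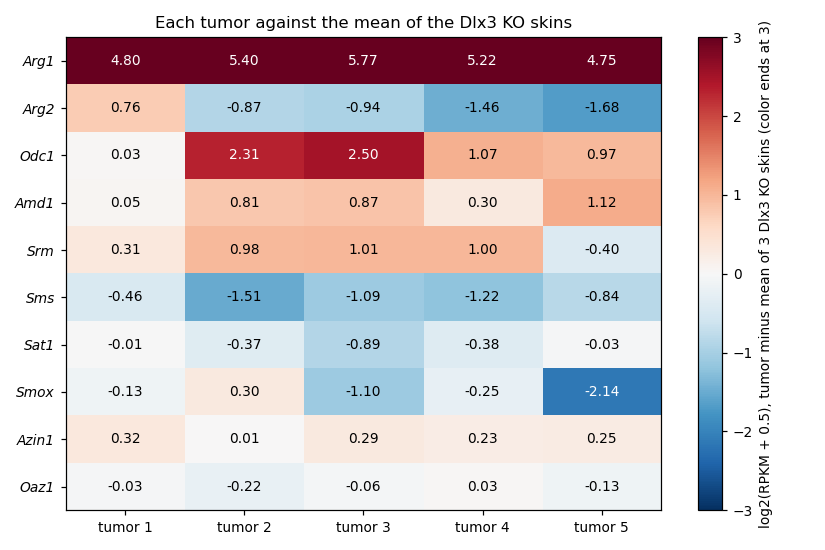
Difference of log2(RPKM + 0.5) between each tumor (columns) and the mean of the 3 Dlx3 KO skins for the 10 genes (rows), with the value printed in each cell. Arg1 was higher by 4.75 to 5.77 in all 5 tumors, Odc1 by 0.03 in tumor 1 and by 0.97 to 2.50 in the others, and Sms was lower in all 5.

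Among the tumors, the 10 genes did not move as 1 block. Odc1 and Srm were both high in tumors 2 and 3, Srm also in tumor 4, while tumor 5 had the highest Amd1 and the lowest Smox, Srm and Arg2. Tumor 1 had the highest Arg2 and Sms and the lowest Odc1 and Amd1. The summed fibroblast markers were 1624 RPKM in tumor 1 and 161 to 932 RPKM in the other tumors, and Rn45s, the precursor of ribosomal RNA, was at 11833 RPKM in tumor 5 and 1178 to 3242 RPKM in the other tumors. The part of these differences in the spread among tumors was not tested.

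Dlx3 KO tumors were also set against WT skin, which is the comparison of lesion and normal genotype after the same treatment. It shares its tumors with the comparison above, so its values are not a second, independent result. Arg1 rose and Sms fell, 2 of 10 members, where 15.5% of all tested genes were called (3.56% higher and 12.0% lower). The median log2 fold change of the members was 0.20, against -0.14 over all tested genes, and 2 members had groups that did not overlap, against 16.1% of all genes (3.89% higher and 12.2% lower). Arg1 averaged 163 ± 49.2 RPKM in tumors and 11.04 ± 7.31 RPKM in WT skin (SD, n = 5 and 3; log2 fold change 4.02 ± 0.58, SE, limma adjusted p = 0.00083). Within run 1, where tumor 5 is the only tumor, the log2 fold change was 3.58, given without a test. Sms averaged 3.92 ± 1.26 RPKM in tumors and 13.8 ± 3.98 RPKM in WT skin (log2 fold change -1.70 ± 0.29, SE, limma adjusted p = 0.00235). Sms no longer passed once run entered the model (-1.37, adjusted p = 0.0618), and within run 1, with tumor 5 alone, its log2 fold change was -1.52. Sms lies on the X chromosome, and with the Xist level in the model its log2 fold change was -1.68 (limma adjusted p = 0.00626). Xist was under 1 RPKM only in WT skin 1 and 3 and tumors 3 and 4, so this term overlaps in part with group. The part of sex in the Sms levels was not tested. Srm stood at 0.84 ± 0.31 on the log2 scale (SE, limma adjusted p = 0.0964) and passed in 6 of 25 alternatives, among them median-ratio scaling (1.05, adjusted p = 0.0225), quantile scaling (0.93, adjusted p = 0.0276) and tumor 5 left out (1.08, adjusted p = 0.00752), but not with run in the model (0.28, adjusted p = 0.665). For Odc1 the log2 fold change was 0.29 ± 0.49 (SE, limma adjusted p = 0.751), with 1 WT skin above 3 of the tumors.

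What the knockout does in treated skin outside tumors was asked from Dlx3 KO skin against WT skin, 3 libraries each. No member passed the test in limma, none had an unadjusted p under 0.05, and 0% of all tested genes were called, although 1229 of 14233 had an unadjusted p under 0.05. In the authors' deposited table the smallest p of a member was 0.0846, for Sms. Odc1 and Smox had groups that did not overlap, 2 of 10 members, against 16.4% of all tested genes (11.3% higher and 5.10% lower). Odc1 was at 22.2 to 36.3 RPKM in Dlx3 KO skin and at 47.1 to 84.0 RPKM in WT skin (log2 fold change -1.09 ± 0.55, SE, limma adjusted p = 0.616). Smox was at 51.7 to 59.0 RPKM in Dlx3 KO skin and at 18.0 to 42.5 RPKM in WT skin (1.03 ± 0.54, adjusted p = 0.629). For both, the library labelled WT skin 2 was the WT skin nearest to the Dlx3 KO skins. Without it, the log2 fold change of Smox was 1.36 (limma adjusted p = 0.42). Sms had -0.67 ± 0.32 (SE, adjusted p = 0.593) and Arg1 -1.16 ± 0.64 (adjusted p = 0.657), with Arg1 at 1.37 to 10.8 RPKM in Dlx3 KO skin and 3.61 to 18.2 RPKM in WT skin. Xist was at 10.1 to 14.6 RPKM in Dlx3 KO skin and under 1 RPKM in WT skin 1 and 3, so sex and genotype overlap here. With the Xist level in the model, Arg1 had -0.49 (limma adjusted p = 0.843). The part of sex in the differences between these skins was not tested. Summed hair markers, given above, were far higher in WT skin 1 and 3 (8126 and 10985 RPKM) than in the library labelled WT skin 2 (831 RPKM) or the Dlx3 KO skins, and Odc1 was highest in those 2 WT skins. Their part in the Odc1 difference was not tested.

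**Figure D4:**
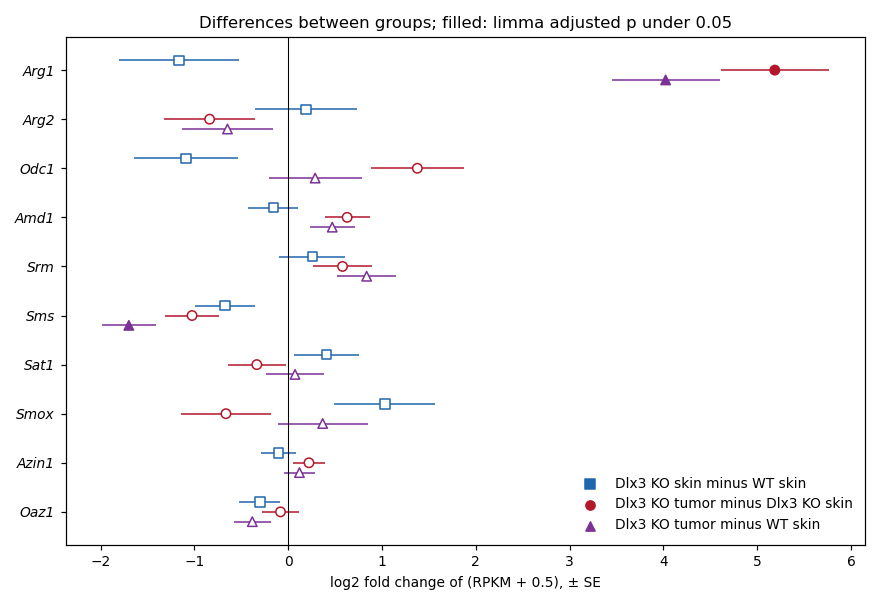
Log2 fold change of (RPKM + 0.5) ± SE (x axis) of the 10 genes (y axis) in the 3 comparisons, from limma, with filled symbols at adjusted p under 0.05. Arg1 at 5.19 and 4.02 and Sms at -1.70 are the filled values, and 0 members are filled for Dlx3 KO skin minus WT skin.

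By level per length, the order in tumors was Oaz1, Arg1, Sat1, Odc1, Srm, Smox, Amd1, Azin1, Sms and Arg2, each overlapping the next in range except Amd1 with Azin1 and Azin1 with Sms. In Dlx3 KO skin Arg1 was the ninth of the 10 and overlapped Azin1 above it and Arg2 below it, and in WT skin it was the eighth. Odc1 was the third in WT skin, where its range overlapped Sat1, and the fifth in Dlx3 KO skin, where it overlapped Srm.

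Genes around the pathway were taken from lists named with the members. Of 14 tested genes for arginine supply, use and transport (of 21 listed), 3 fell and 0 rose in tumors against Dlx3 KO skin, with a median log2 fold change of -0.41 (-0.23 over all tested genes). They were Gatm, the first enzyme of creatine synthesis (2.11 ± 0.714 RPKM in tumors and 5.20 ± 0.271 RPKM in Dlx3 KO skin, SD, n = 5 and 3, limma adjusted p = 0.0161), the neuronal nitric oxide synthase Nos1 (adjusted p = 0.0114) and the arginine transporter Slc7a2 (adjusted p = 0.0387). Nos1 averaged 0.0885 RPKM in tumors and 1.05 RPKM in Dlx3 KO skin, so it passed the filter at 0.5 RPKM only through the skins. Over all tested genes 0.998% rose and 6.56% fell, so 1 fallen gene in a list of 9 to 15 is near that background. Of 9 tested genes from ornithine to proline and glutamate, 1 fell and 0 rose: glutamine synthetase, Glul (62.8 ± 70.2 RPKM in tumors and 256 ± 106 RPKM in Dlx3 KO skin, adjusted p = 0.0396). Of 10 tested antizyme, back-conversion and transport genes, 1 fell and 0 rose, the organic cation transporter Slc22a3, at 0.0941 ± 0.0965 RPKM in tumors and 0.883 ± 0.516 RPKM in Dlx3 KO skin. Of 15 tested genes of the methionine cycle and salvage, 1 rose and 1 fell. Mtap, which recycles the methylthioadenosine left by both synthases, rose to 27.5 ± 19.5 RPKM in tumors, against 5.35 ± 1.37 RPKM in Dlx3 KO skin (log2 fold change 2.01, adjusted p = 0.0389). Single tumors had 8.22, 26.2, 59.6, 16.8 and 26.6 RPKM of Mtap, so tumor 1 was again nearest to the skins. Got1, an aspartate aminotransferase, fell (log2 fold change -1.71, adjusted p = 0.0128). None of the 3 tested hypusine genes passed. Skeletal muscle markers fell in 16 of 16 and adipocyte markers in 9 of 10 genes of their lists in tumors against Dlx3 KO skin, with the same counts against WT skin. The adipocyte markers summed to 461 to 3007 RPKM in tumors, 1790 to 3769 RPKM in Dlx3 KO skin and 3207 to 4499 RPKM in WT skin. Fabp4, the 1 gene of that list without a call, made most of the sum in each tumor, with 2984 of 3007 RPKM in tumor 3. The overlap of these sums between tumors and Dlx3 KO skin is thus not shared by the list as a whole. The part of muscle and fat in the falls of these pathway genes and in the Sms levels was not tested.

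Against WT skin, where 3.56% of all tested genes rose and 12.0% fell, Nos1, Gatm, Gamt and Ddah2 fell among the 14 arginine genes and 0 rose, and the ornithine aminotransferase Oat was the 1 gene called of its list, at 33.4 ± 12.6 RPKM in tumors and 60.4 ± 12.8 RPKM in WT skin (limma adjusted p = 0.0391). Oaz2, a second antizyme, fell to 24.6 ± 5.54 RPKM in tumors, against 52.0 ± 13.4 RPKM in WT skin (adjusted p = 0.0113), and Slc22a3 fell too. Mtap rose and Got1 fell again, in a comparison with the same tumors. Eif5a, the translation factor that carries hypusine, an amino acid made from spermidine, rose to 467 ± 96.5 RPKM in tumors, against 265 ± 71.9 RPKM in WT skin (log2 fold change 0.82, adjusted p = 0.0338). In Dlx3 KO skin against WT skin, 0 genes of the 5 lists passed.

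The genes with profiles most like that of Arg1 over the 11 libraries, by the mean absolute difference of centred log2 values, were Dsc2, a desmosomal cadherin (0.91), Gsto1, an omega-class glutathione transferase (0.92), Fetub (0.97), the membrane protease Tmprss11g (1.01) and Sh2d5 (1.01). For Odc1 they were Tubb6, a beta tubulin (0.22), Hist1h2ap (0.33), Procr (0.34), the ETS factor Etv4 (0.34) and E2f7 (0.38). These are descriptions over libraries that share 3 groups, and no test was made.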

How the data were processed

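RNA was read as single ends of 50 bp on a HiSeq or NovaSeq, per the labels' protocols. The submitters' processing notes name bcl2fastq 2.20.0.422, TopHat2 2.1.1, Bowtie, Partek and the build mm10. RPKM per gene were computed by the authors with Partek and are not log transformed, per the file headers. The deposited p-value and ratio of each gene come from an ANOVA of the authors in Partek, whose terms the file headers do not state. Counts of alignments per library (29265111 to 75707445) are from the deposited sample sheet. Gene counts are not used here, so precision was judged from the spread between libraries.

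Values were taken as log2(RPKM + 0.5), which understates fold changes of low genes. Genes averaging 0.5 RPKM or more (14233) were fitted over the 3 groups with limma 3.58.1 in R 4.3.3 (robust eBayes with a trend, residual df 8), with two-sided p-values adjusted by Benjamini and Hochberg over all of them. The fit was also run on simulated independent normal values without effects of run, sex or shared animals, so that run cannot speak to those. Alternatives changed the pseudocount, filter, scaling, limma settings and library weights, added run, Xist or a replicate block, or left libraries out. RPKM are shares of a library, so large changes in abundant genes move all others. Members and lists were chosen with earlier results of these data known. The text names all members, up to 4 called genes of each pathway list per comparison and direction with the smallest p, the 5 genes nearest in profile to Arg1 and Odc1 without predicted, clone-named, small RNA and immune receptor genes, and marker genes. Positions and shared 50-base windows, of 1 coding transcript per gene on either strand, are from GENCODE M21 on mm10. Figures used Python 3.11.15 and matplotlib 3.10.9.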

Additional observations from a re-analysis of the deposited data

Results flagged for a closer look

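Arg2 in the tumors was 1 of 10 members examined among the 5 tumors, and the only member of these in which a single tumor stood far from the others. Tumor 1 had 6.87 RPKM, against 0.865 to 1.89 RPKM in the other 4 tumors, and its gap to the nearest of them was 0.830 of the range of all 5, above Dixon's critical value. About 1 in 20 groups is marked in this way by chance. Fibroblast markers summed to 1624 RPKM in tumor 1 and 161 to 932 RPKM in the other tumors. Markers of alternatively activated macrophages summed to 96.0 RPKM in tumor 1 and 4.50 to 24.9 RPKM in the others, and macrophage and dendritic markers to 726 RPKM and 166 to 468 RPKM. Glul was at 188 RPKM in tumor 1 and at most 32.8 RPKM in the others. The part of these in the Arg2 level was not tested.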

How the results depend on the processing

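Of 760 values of the members under 26 alternatives, 718 kept their direction and side of the threshold, 2 lost a call, 23 gained one and 17 reversed. These counts include the fits of each run alone, where 1 arm holds 1 library. They also include the replicate block, where tumors 4 and 5 have no same-numbered skin and so drop out of the group differences. Changes of the filter or limma settings cannot move a log2 fold change. Nor can fitting the compared groups alone or leaving out a library of the third group. The same holds for the replicate block in Dlx3 KO skin against WT skin. Direction was therefore fixed in advance under those alternatives, and the count of kept values is no measure of robustness there. Arg1 passed in all 26 alternatives for tumor against Dlx3 KO skin (log2 fold change 3.92 to 5.88) and in all 25 against WT skin (3.03 to 4.50), and Sms in 23 of 25 against WT skin. For tumor against Dlx3 KO skin, 1 member was called, against 6 with library weights, 2 in the first run alone, 5 without WT skin 2 and tumor 1 together and 1 to 5 with single libraries left out (5 without tumor 1). All genes called there were 1075 (142 higher and 933 lower), against 5969 with library weights, 357 with the replicate block, 1627 and 204 in the first and second run alone, 579 with the Xist level as a term, 3276 without WT skin 2 and tumor 1, and 347 to 2867 with single libraries left out (fewest without Dlx3 KO skin 3, most without tumor 1). For tumor against WT skin, 2 members were called, against 1 with run as a term, 1 in the first run alone and 2 to 3 with single libraries left out. All genes called there were 2208 (506 higher and 1702 lower), against 986 with the replicate block, 705 with run as a term and 1308 to 3284 with single libraries left out. For Dlx3 KO skin against WT skin, all genes called were 0, against 2 with library weights, 307 without WT skin 2 and tumor 1 and 0 to 229 with single libraries left out (229 without WT skin 2, 13 without tumor 5), and members called were 0 throughout. The cause of these changes was not tested. Median-ratio and quantile scaling moved the median of all genes to 0.017 and 0.081 for tumors against Dlx3 KO skin and to 0.045 and 0.13 for tumors against WT skin, and the calls to 341 higher with 798 lower, 446 with 655, 1185 with 1632 and 1409 with 1393.

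Reversed log2 fold changes were of members without a call. In Dlx3 KO skin against WT skin they were Arg2 without WT skin 2, alone or with tumor 1 (-0.10 in both; -0.098 to 0.49 with single libraries left out), and Azin1 without WT skin 3 (0.018; -0.20 to 0.018 with single libraries left out). In tumor against Dlx3 KO skin they were Oaz1 with median-ratio (0.20) and quantile scaling (0.039) and Srm in the first run alone (-0.38). In tumor against WT skin they were Srm (-0.14), Smox (-1.11) and Odc1 (-0.12) in the first run alone, Smox with run as a term (-0.38), Azin1 without WT skin 2 and tumor 1 (-0.0058), and Sat1 with library weights (-0.072), with the replicate block (-0.014), without WT skin 2 and tumor 1 (-0.34), and, at -0.26 to 0.25, with single libraries left out (-0.0074 without tumor 1, -0.0036 without tumor 5, -0.26 without WT skin 2).

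No label says that replicate numbers pair the libraries. Same-numbered libraries had correlations of deviations from their group means of -0.41 to 0.18, with -0.11 to 0.0085 for tumor against Dlx3 KO skin. So few values cannot show whether some tumors and Dlx3 KO skins come from 1 animal. With the replicate block, 0, 1 and 3 members were called in the 3 comparisons. In each run alone 1 arm holds 1 library, which is assumed there to vary like the other groups, so the calls of those fits rest on that assumption. A fit of the second run alone was possible only for tumor against Dlx3 KO skin, since it holds no WT skin.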
